A study of Rattus norvegicus with 2 samples.

Results

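Isolated ZHX2 peaks are the places where DNA precipitated with an antibody against ZHX2 was enriched and no other enriched place lay within 1 Mb. They were chosen from the list of peaks, which are the stretches of genome where the immunoprecipitated (IP) library exceeded its control. The list held 2331 peaks. Peaks less than 1000 bp apart were counted as 1, with the most significant of them kept, which left 2291 peaks. Of the 1987 kept peaks on chromosomes 1 to 20 other than 10 and 12, 251 (12.6%) had no other kept summit within 1000000 bp and are the isolated peaks described here. A summit is the base of a peak with the highest signal. Since distance between peaks chose the members, and the peaks came from this same IP, every value below is a description and no test was made.

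The cells were rat (Rattus norvegicus) VSMCs, that is, smooth muscle cells of blood vessels in primary culture, grown in SMCM medium without any further treatment named in the labels. They were crosslinked with 1% formaldehyde for 10 min. Sonicated chromatin was divided into 90% for the IP with an antibody to ZHX2 and 10% for the input. There was 1 IP library and 1 input library, so no spread between replicates could be measured. The labels used here give neither the vessel, the strain, the sex nor the passage of the cells. Expression was not measured in these files, so the label could not be checked against smooth muscle markers.

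ZHX2 belongs to the zinc-fingers and homeoboxes family, whose members carry zinc fingers of the C2H2 kind and several homeodomains. It is found in the nucleus, pairs with itself and with its family members, and is best known as a repressor of transcription, among others of the alpha-fetoprotein gene in liver. Smooth muscle cells of vessels contract, and in culture they shift to a state of growth and matrix production. Binding sites of transcription factors often lie in groups near genes, and others stand far from the next site. Peaks are placed on rn6, the only build named in the submitters' processing notes. A genome or annotation of that build was not used here, so no gene, promoter or sequence was assigned to a peak.

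Isolation ranged widely among the 251 peaks. The nearest other summit lay at a median of 1.73 Mb, with quartiles of 1.28 and 2.66 Mb and a maximum of 11.9 Mb. It was over 2 Mb away for 104 peaks, over 4 Mb for 27 and over 5 Mb for 18. For 234 peaks another summit was found on both sides. The stretch between those flanking summits had a median of 5.86 Mb, quartiles of 4.13 and 8.50 Mb, and extremes of 2.18 and 28.3 Mb. Both sides were empty for more than 2 Mb at 97 peaks. The gaps between summits that touch an isolated peak added up to 1275 Mb, or 53.9% of the 2365 Mb between the first and the last kept summits of the 18 chromosomes. Stretches before the first and after the last summit of a chromosome are in neither figure.

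**Figure D1:**
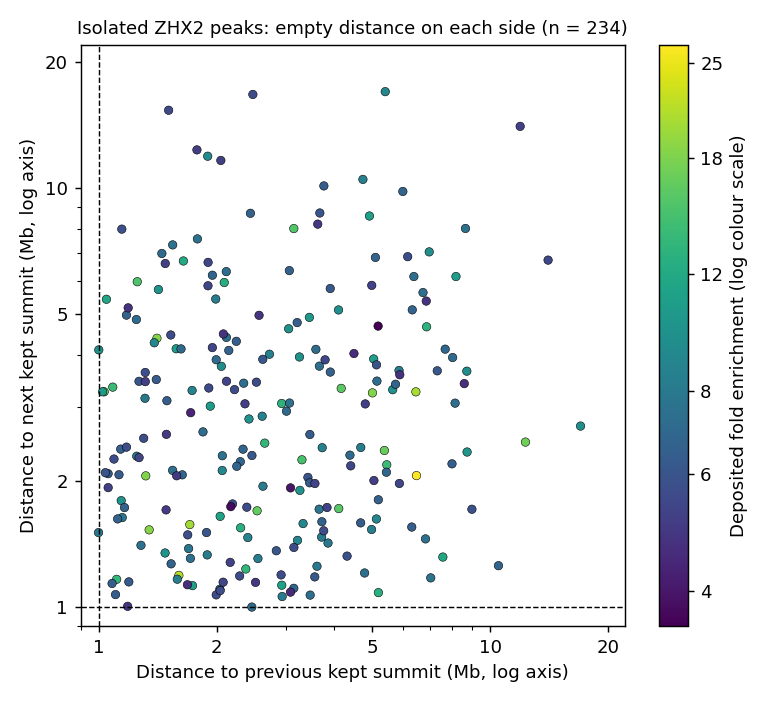
Distance in Mb from isolated peaks to the previous kept summit (horizontal, log axis) and to the next (vertical, log axis). Colour gives the deposited fold enrichment and dashed lines mark 1 Mb. Of the 234 peaks with a summit on both sides, chr15:88670234-88670467 is not shown, since its 26.8 Mb to the previous summit exceeds the axis. Low folds are found at short and long distances, and folds of 20 or more only where the nearest summit lay within 4 Mb.

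The limit of 1 Mb cut through a continuous range of distances. Just inside it lay chr2:263863953-263864322 and chr2:264863953-264864560, which were each other's nearest summit at 1000038 bp. Their folds were 7.17 and 7.94. The next was chr1:73733461-73734035, at 1001317 bp from its neighbour and with a fold of 9.93. Just outside lay chr1:212606642-212606885 at 999869 bp, chr3:14881231-14881457 at 984373 bp and chr8:130930782-130931017 at 973333 bp. Folds of these 3 were 6.10, 5.26 and 5.46. The values on either side of the limit are given as a description only.

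Farthest from any other peak was chr2:74274976-74275232, with its summit at 74275111. Its nearest summits were 11.9 Mb before and 14.04 Mb after it. It was a weak peak, 257 bp wide, with a fold of 5.17 and a −log10 q of 2.97. Next among peaks with a summit on both sides came chr2:166402796-166403232, which had 8.64 Mb empty before it and 8.01 Mb after it and a fold of 7.53. Then followed chr13:60567933-60568223, with 6.98 and 7.04 Mb empty and a fold of 9.68, and chr2:88313863-88314230, with 14.04 and 6.73 Mb and a fold of 5.43.

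A pair on chromosome 5 shared a gap of 6.15 Mb. These were chr5:86554045-86554356, whose fold of 10.9 was the highest of the 10 farthest, and chr5:92705591-92705817, with a fold of 5.67. The other 4 of the 10 were chr6:86713309-86713585 (fold 7.36), chr16:54899312-54899609 (fold 6.77), chr2:95044914-95045444 (fold 7.36) and chr11:7210116-7210452 (fold 8.99). Their nearest summits were 6.15, 5.98, 5.63 and 5.39 Mb away. The 10 farthest peaks had a median fold of 7.36, close to that of all isolated peaks, and 4 of them lay on chromosome 2. None of them was among the 10 isolated peaks with the highest −log10 q, but sets this small among 251 peaks share few members by chance alone.

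A further 17 isolated peaks had a summit on only 1 side, 9 as the first and 8 as the last kept peak of a chromosome. The longest one-sided distances were 8.54 Mb at chr18:86071514-86072090 (fold 5.96) and 8.01 Mb at chr17:90071318-90071716 (fold 12.1). On chromosome 13 the first peak of the list was itself isolated. It lay at chr13:27444311-27444630 with a fold of 6.31 and 6.81 Mb empty after it. The first summits of the other 8 such chromosomes began as early as 0.756 Mb, on chromosome 16.

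Isolated peaks often followed each other, which the selection favours, since consecutive peaks share a gap and a long gap counts for both. How many such runs independent gaps would give was not computed. In order along the chromosomes they fell into 143 runs of consecutive isolated peaks, of which 89 were a single peak and 54 held 2 or more. These 54 runs contained 162 of the 251 peaks (64.5%). For 103 isolated peaks the nearest kept peak was itself isolated. For 116 it was a peak with another summit 100 kb to 1 Mb away, and for 32 a peak with another summit within 100 kb. The 18 chromosomes held 1017 and 719 peaks of these kinds. There were 13 runs of at least 4 peaks, on 11 chromosomes, with 68 peaks in all.

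The run with the most peaks held 8 and took up the start of chromosome 2, from the summit at 1411062 to that at 23608805, over 22.2 Mb. Its peaks had folds from 5.45 to 9.12, with a median of 6.99. The run with the greatest span held 7 peaks over 43.5 Mb of the same chromosome, from 57196566 to 100677398. Its gaps ranged from 1.90 to 14.04 Mb. Along it the folds were 16.7, 9.96, 9.19, 5.17, 5.43, 7.36 and 9.58. The lowest folds therefore belonged to the peaks at chr2:74274976-74275232 and chr2:88313863-88314230, which flank its largest gap.

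**Figure D2:**
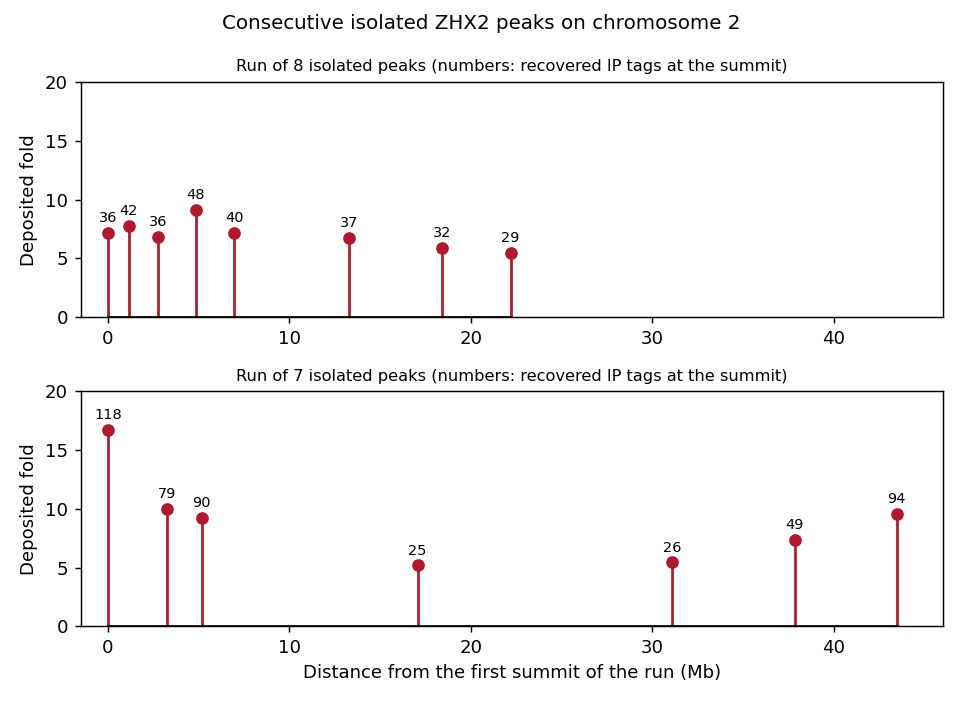
Deposited fold enrichment (vertical) of the consecutive isolated peaks in 2 runs on chromosome 2, against the distance in Mb from the first summit of each run; numbers give the recovered IP tags at each summit. The run of 8 peaks spans 22.2 Mb with 29 to 48 tags, and the run of 7 spans 43.5 Mb with 25 to 118 tags.

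Runs of 6 peaks were found on chromosome 14 (62609493 to 77492957, 14.9 Mb), on chromosome 9 (103393119 to 117775606, 14.4 Mb) and on chromosome 3 (96065706 to 107142674, 11.1 Mb). Each contained at least 1 peak with a fold above 10, and the highest folds on chromosomes 9 and 3 were 14.9 and 11.3. The 5 peaks on chromosome 20 from 14095273 to 25328457 stayed between folds of 6.09 and 8.40. Peaks alone and peaks in runs of at least 2 had median folds of 6.65 and 7.05. Their median widths were 289 and 301.5 bp.

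Every one of the 18 chromosomes held isolated peaks, from 5 on chromosome 19 to 32 on chromosome 2. As a share of the kept peaks of a chromosome they were most frequent on chromosome 11 (12 of 59, 20.3%), chromosome 2 (32 of 164, 19.5%) and chromosome 9 (17 of 93, 18.3%). They were least frequent on chromosome 1 (19 of 263, 7.22%) and chromosome 19 (5 of 67, 7.46%). Chromosomes with more peaks per Mb had a smaller isolated share, with a Spearman correlation of -0.79 over 18 chromosomes, which is a description. Fewer peaks leave longer gaps by construction. Chromosome 20 stood apart from this order, with the most peaks per Mb (1.23) and 10 of 69 peaks isolated (14.5%). So did chromosome 15, with the fewest peaks per Mb (0.536) and only 9 of 59 peaks isolated (15.3%). Gaps beside isolated peaks took up 76.7% of the length between the first and last kept summits of chromosome 18 and 37.4% of that of chromosome 1, the extremes of the 18.

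**Figure D3:**
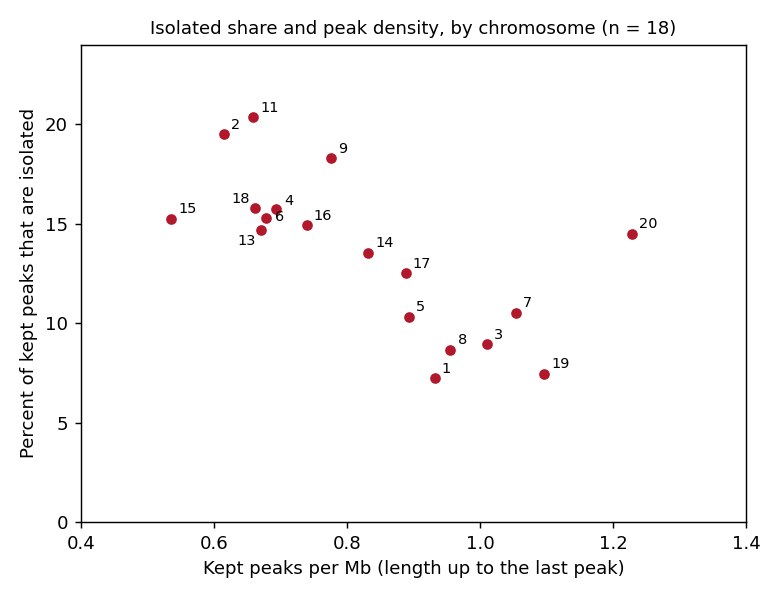
Percent of kept peaks that were isolated (vertical) against kept peaks per Mb up to the last peak (horizontal), 1 point per chromosome labelled with its number. The highest share was 20.3% on chromosome 11 and the lowest 7.22% on chromosome 1. Shares tend to fall with more peaks per Mb. Chromosome 20, with the most peaks per Mb, lies above that order at 14.5%, and chromosome 15, with the fewest, below it at 15.3%.

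In strength, isolated peaks covered nearly the whole scale of the list. The authors' fold enrichment, a ratio of IP to local background at the summit, had a median of 6.88, and its quartiles were 5.75 and 9.12 between extremes of 3.53 and 26.7. On the same 18 chromosomes the 1736 other kept peaks had a median of 7.21, with quartiles of 6.01 and 9.24. Peaks with another summit within 100 kb (719 peaks) had a median of 7.26, those with the nearest summit 100 kb to 1 Mb away (1017 peaks) 7.16, and those on chromosomes 10 and 12 (275 peaks) 7.42. These medians lie far closer to each other than the quartiles of any of the groups. By chromosome, the median fold of isolated peaks was below that of the other peaks on 13 of the 18 chromosomes and above it on 5.

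Of the isolated peaks, 47 (18.7%) had a fold of 10 or more, beside 20.2% of all 2291 kept peaks. A fold of 20 or more was found at 5 (1.99%), beside 1.09% of all kept peaks. A −log10 q of 5 or more was found at 165 (65.7%), beside 69.8%. Of the 230 kept peaks in the top 10% by −log10 q, 27 (11.7%) were isolated, beside 10.96% of all 2291 kept peaks. Among the isolated peaks nearest distance and fold had a Spearman correlation of 0.01 over 251 peaks that share a pair of libraries. The 27 peaks over 4 Mb from the nearest summit had a median fold of 6.77. Their folds ranged from 3.53 to 12.9, so none reached 20. Widths of isolated peaks had a median of 298 bp against 296 bp in the other peaks, and ranged from 211 to 917 bp. The widest was chr11:89510471-89511387, with a fold of 9.44. The summit was near the middle of the peak, at a median of 48.9% of its width.

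**Figure D4:**
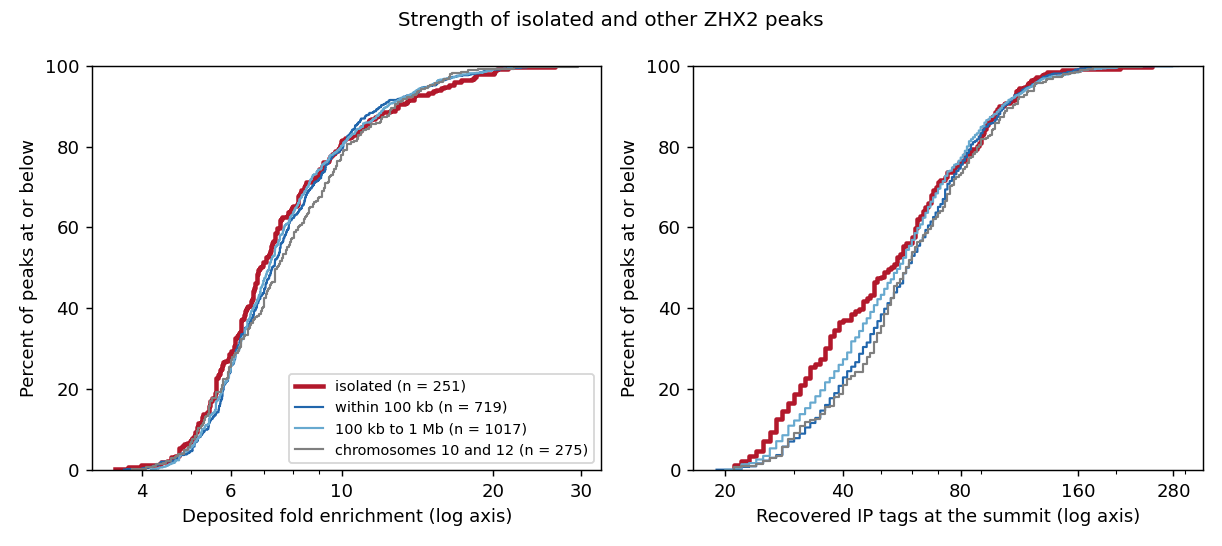
Cumulative percent of peaks at or below each fold enrichment (left, log axis) and each number of recovered IP tags at the summit (right, log axis), for isolated peaks and 3 other groups. The fold curves nearly coincide, with medians from 6.88 to 7.42, while the tag curve of isolated peaks lies above the others at low numbers, with 25.5% of isolated peaks at 33 tags or fewer.

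The strongest isolated peaks ranked among the strongest of the list. At the top stood chr1:123064644-123065009, with its summit at 123064833, the fourth of all kept peaks by −log10 q. It was 366 bp wide, with a fold of 26.7 and a −log10 q of 50.3, and stood 6.48 Mb after the previous summit and 2.06 Mb before the next. It was followed by chr13:103300581-103301009, the fifth of all kept peaks, with a fold of 21.5 and a −log10 q of 49.9. That peak opens a run of 5 isolated peaks that reaches to the last peak of chromosome 13. The third was chr20:2088168-2088592, the first kept peak of chromosome 20, with a fold of 20.2 and 1.21 Mb to the next summit.

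On chromosome 7, chr7:47928098-47928717 had a fold of 20.4, was 620 bp wide and had 6.45 and 3.26 Mb empty on its sides. Chromosome 3 held 3 of the 10 highest. These were chr3:152933337-152933891 (fold 20.1), chr3:129885528-129885955 (fold 18.4) and chr3:35801113-35801547 (fold 17.3). The last of these had 12.3 Mb empty before it and 2.48 Mb after it. The others were chr4:80333254-80333685 (fold 18.5), chr1:249574511-249575047 (fold 18.5) and chr17:13586274-13586765 (fold 18.2). The 10 peaks ranged from 366 to 620 bp in width and had nearest summits from 1.19 to 3.26 Mb away. The same 10 were also the 10 highest by fold.

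At the weak end, the lowest −log10 q among isolated peaks, 1.97, belonged to chr2:243423040-243423259, which also had the lowest fold of the whole list, 3.53. The next was chr9:88110743-88110962, with a −log10 q of 2.20 and a fold of 4.81. Both were 220 bp wide, near the smallest width of 211 bp. At that smallest width there were 11 isolated peaks, with folds from 4.56 to 5.96. The number among all kept peaks was not computed. A width of at least 500 bp, a limit set after the values were seen, was found at 19 of 251 isolated peaks. Beside this stood 170 of all 2291 kept peaks. The 19 isolated peaks had folds from 5.85 to 20.4.

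A fold does not show how many sequenced fragments lie behind it. Tags (reads or fragments as the peak caller counted them) were therefore recovered from each peak's fold and p-value under the formulas of MACS. Isolated peaks had a median of 53 IP tags over the summit, quartiles of 33 and 77.5, and extremes of 21 and 247. The other peaks of the 18 chromosomes had a median of 57, with quartiles of 40 and 78.25. The upper quartiles were alike, and the lower quartile of isolated peaks was lower. At most 33 tags, a limit set after the values were seen, were found at 64 isolated peaks (25.5%), against 14.6% of the other peaks and 11.7% of those within 100 kb of another. By chromosome, median tags were lower in isolated peaks on 11 of 18, equal on 1 and higher on 6.

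The background under isolated peaks, which comes from the control library, was also lower. It had a median of 0.232 control tags, against 0.422 in the other peaks, and by chromosome the median was lower on 13 of 18, equal to 4 decimals on 4 and higher on 1. For 50 isolated peaks (19.9%, exact interval 15.2% to 25.4%) it was the lowest value of the list, 0.108, which applies where no control tags raise it. The share was 14.3% in the other peaks (12.7% to 16.1%), 16.4% in peaks 100 kb to 1 Mb from another and 11.4% in those within 100 kb. Steps of distance chosen after the values were seen gave 17.7% at 1 to 2 Mb (147 peaks), 20.8% at 2 to 4 Mb (77 peaks) and 29.6% over 4 Mb (27 peaks, 13.8% to 50.2%). The intervals of these 3 steps overlap. All intervals of shares given here treat the peaks of 1 library as independent, and measure no spread between replicates.

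Few tags and low background went together, as the calling of peaks requires, since few tags can pass only over a low background. Among isolated peaks the fewest IP tags were 21 on the lowest background and 45 with control tags over the summit. The shares below therefore follow in part from the calling. Among peaks with at most 33 tags, 60.9% of isolated and 51.6% of other peaks had the lowest background. Above 33 tags the shares were 5.88% and 7.96%. The median background at up to 33 tags was 0.108 in both groups, and above 33 tags it was 0.422 in isolated and 0.633 in other peaks. At a −log10 q of at least 5, a value computed from tags and background, 10.3% of isolated and 10.8% of other peaks had the lowest background, and the median background was 0.422 in both.

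The depth-scaled ratio of IP to control without the caller's pseudocount of 1 had a median of 30.2 in isolated peaks, with quartiles of 17.0 and 48.2. In the other peaks its median was 25.2, with quartiles of 14.1 and 44.6. The order of isolated and other peaks by this ratio is therefore the opposite of their order by deposited fold. The pseudocount lowers the fold most where the background is small. The lower limit of the exact 95% interval of the ratio was above 5 at 173 isolated peaks (68.9%), beside 63.9% of all kept peaks. It was above 2 at 235 and above 1 at all 251, as the selection of peaks by the caller favours. At the lowest background (19.9% of isolated and 14.9% of all kept peaks) the interval leaves out counting error of the control. The shares above 5 are therefore not like for like.

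Few control tags lay behind many of these intervals, as the background was read here. For 56 isolated peaks (22.3%) the background came from control tags over the summit, beside 27.2% of all kept peaks. There was 1 tag in 40 of the 56, 2 in 10, 3 in 5 and 4 in 1. For 109 (43.4%) the background was read as control tags in 1000 bp, beside 45.4% of all kept peaks. For 36 (14.3%) it was read as control tags in 10000 bp, beside 12.5% of all kept peaks. The source of none of the 109 is settled, since 10 times as many control tags in 10000 bp give the same level. Intervals of the ratio take the reading in 1000 bp. At 47 the level was that of 1 control tag in 1000 bp, which 10 in 10000 bp also give. The strongest peak, chr1:123064644-123065009, had 162 IP tags, and its background was at that same level. Its ratio, 148, was the highest of the isolated peaks (exact interval if 1 control tag is taken, 26.2 to 5894). The peak chr13:103300581-103301009 had the most IP tags, 247, and a ratio of 37.7. Its background was read as 6 control tags in 1000 bp (exact interval on that reading, 17.1 to 104). On these readings the intervals of both overlap. Intervals for the reading in 10000 bp were not computed, so these peaks are not ordered by ratio here. At chr20:2088168-2088592, 204 IP tags stood over 1 control tag at the summit, for a ratio of 39.4 (6.99 to 1564).

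The farthest peak, chr2:74274976-74275232, rested on 25 IP tags and on 6 control tags within 10000 bp, with a ratio of 38.1 (15.3 to 114). Its ratio was close to that of the chromosome 13 peak, which had 247. At chr2:166402796-166403232 there were 38 IP tags over the lowest background, for a ratio of 67.8 (48.0 to 93.1). That interval leaves out counting error of the control, so its width cannot be set against those of peaks with control tags. The lowest ratio, 4.38 (1.44 to 21.8), was that of chr2:243423040-243423259, where 68 IP tags stood over 3 control tags at the summit. The peak with the most control tags over its summit, 4, was chr5:169505937-169506211. It had 92 IP tags, a fold of 3.75 and a ratio of 4.44 (1.68 to 16.7), and was singled out after its values were seen.

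**Figure D5:**
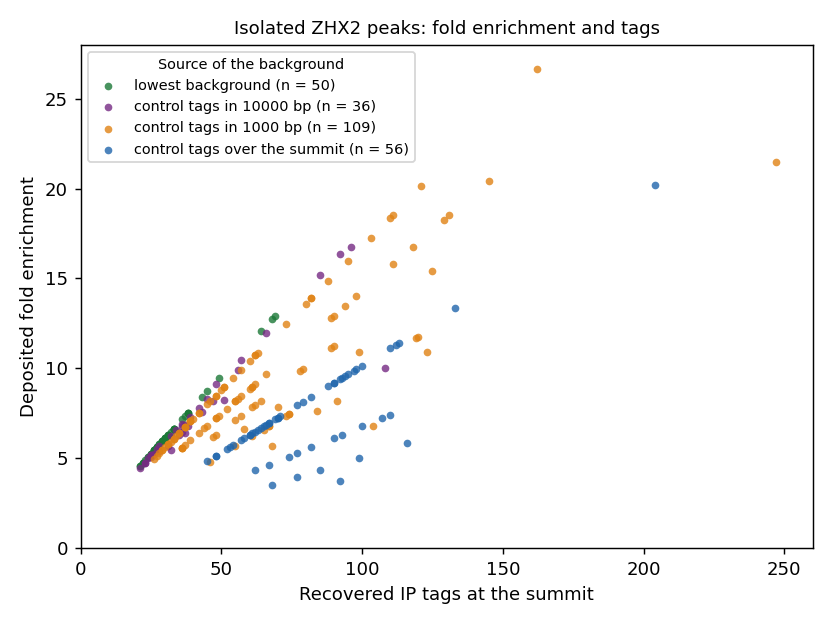
Deposited fold enrichment (vertical) against recovered IP tags at the summit (horizontal) for the 251 isolated peaks, coloured by where the background came from. Levels that control tags in 1000 bp and in 10000 bp both allow are shown as 1000 bp. Peaks on the lowest background (50 peaks) follow the steepest line, and those with control tags over the summit (56 peaks) lie on lower lines, so that equal numbers of tags gave different folds.

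Ties limited how finely weak isolated peaks could be ordered. The 251 peaks had 115 distinct p-values. The commonest, a −log10 p of 8.69, was shared by 22 peaks with 26 to 31 IP tags and folds from 5.43 to 6.31, all of them on the lowest background. These 22 peaks differed in the deposited fold by steps of single IP tags only.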

How the data were processed

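One peak list, that of the IP library, was analysed. Trimmomatic 0.36, STAR 2.5.3a, MACS2 2.1.1 and rn6 are named, without roles, in the submitters' processing notes; which library was the control, the filters and the sequencing depth are not given in the sources used here. The deposited list has no header and follows the narrowPeak layout. It holds a fold enrichment (a ratio), −log10 p and −log10 q values, and a score that the authors deposited, equal to 10 times the −log10 q rounded down, which served to choose the row kept among merged rows.

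Positions were converted to count from 1. Tags were recovered by solving fold = (x + 1)/(b + 1) together with p = P(Poisson(b) > floor(x)), where x is IP tags times 1 factor and b the background. A factor of 0.193 (5.18 IP tags per control tag) gave back both values for 2331 of 2331 peaks; 11 peaks had more than 1 solution, 0 of them isolated. Background levels were read as whole control tags over the summit, in 1000 bp or in 10000 bp; a level that both windows allow was taken as 1000 bp. Intervals of ratios are exact Clopper-Pearson intervals at 95% of IP among IP and control tags, or Poisson intervals at the lowest background. They cover counting error only. Intervals of shares are Clopper-Pearson intervals at 95% over peaks, which treat peaks as independent and measure no spread between libraries. Scripts were tested on simulated data. Python 3.11.15, numpy 2.4.6 and scipy 1.17.1 were used. No test was made, since there was 1 library per group.

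Named peaks are the 10 with the highest −log10 q, the 10 farthest with a summit on each side, the 3 just inside and 3 just outside the limit, and the 2 with the lowest −log10 q; others are named as extremes. The members and this rule were chosen with earlier results of these data known. Planned results on genes, sequence and motifs were left out because a genome of the build was not used here.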

Additional observations from a re-analysis of the deposited data

How the results depend on the processing

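There were 72 values from alternatives. Of these, 63 lay within 1.5 times the reported count or within the 95% interval of the reported median or share, and 9 moved further. The results on background, ratio and peaks with a summit on 1 side were added after the data had been seen. A distance of 500000 bp gave 498 isolated peaks and one of 2000000 bp gave 104, by construction. Keeping only peaks with a −log10 q of at least 5 before selecting left 259 peaks, of which 165 were members before and 94 became isolated because weaker neighbours were ignored. In that set the median fold was 8.29, the median −log10 q 9.06, the median width 324 bp, the median IP tags 66 and the share with a fold of at least 10 was 28.6%. The median background there was 0.422 and the share at the lowest background 10.8%. The −log10 q is computed from tags and background, so this selection acts on the background itself. Merging rows within 5000 bp gave 252 members and no merging gave 250, both including at least 250 of the 251. No paired analysis was possible because the IP and the input are 1 library each. With a single library no replicate could be left out. Alternatives on promoter limits, protein-coding transcripts and summit windows need sequence or annotation of the build and were not run.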

Other observations

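The same distance applied to the chromosomes left out of the selection gave 26 more isolated peaks among 303 kept peaks, 7 of 184 on chromosome 10, 6 of 91 on chromosome 12 and 13 of 28 on chromosome X. Their folds ranged from 4.65 to 15.6 with a median of 6.67, and their IP tags from 23 to 110 with a median of 40.5. On chromosome X the 13 peaks had a median of 38 tags and a median background of 0.127, and 6 of them had the lowest background. All 29 kept peaks of chromosome X and a scaffold, these 13 included, had medians of 40 tags and 0.211. Of those 29, 12 (41.4%) had the lowest background.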
